A study of Oryza sativa with 2 samples.

Results

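Expansins are small proteins of the plant cell wall that let its polysaccharides slip past each other, so that a cell under turgor can enlarge without its wall being digested. The superfamily holds alpha-expansins, beta-expansins and 2 smaller groups, expansin-like A and expansin-like B, whose proteins resemble expansins but have not been shown to loosen walls. The collar joins the blade of a leaf to its sheath, and the angle of the leaf is set there by unequal enlargement of cells on its upper and lower sides, a process that brassinosteroids promote. The 6 genes described here are the alpha-expansin genes OsEXP2, OsEXP5, OsEXP6 and OsEXP16 and the expansin-like A genes OsEXLA2 and OsEXLA3. They were taken by name from the annotation of the array, where the gene of each probe set (a group of oligonucleotides that read 1 transcript) was looked up among the symbols and synonyms of RefSeq. The 6 genes were read by 7 probe sets, OsEXLA2 by 2 and each other gene by 1, out of 57194 probe sets that are not controls. The annotation gave at least 1 probe set to 17905 genes in all.

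The samples were 1 array of wild type rice and 1 array of antisense OsLIC rice. Each RNA was pooled from 30 developing collars at the heading stage, 1 collar per plant, from plants raised for 2 weeks on medium and then grown in the same field. The transgenic plants, all of line 2, carried the complete OsLIC cDNA, reversed into antisense, behind the maize ubiquitin1 promoter, and descended from calli selected on hygromycin. OsLIC encodes a CCCH-type zinc finger protein. A single transgenic line and a single array per condition stand for each plant type, so there was no spread between samples, no significance test was possible, and none of the differences has a replicate check. In pooled tissue, fewer cells that express a gene and less RNA per cell cannot be told apart.

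The targeted gene was read first. OsLIC (AK107008) had a signal of 219.8 on the wild type-labelled array and of 2069 on the antisense-labelled array, 9.41-fold higher under the antisense label. Whether its probe set reads the endogenous transcript, the transgene or both was not checked. The direction of every ratio below is for this reason that of the labels. Signals were scaled by the authors to an overall intensity of 500, and the median over all probe sets was 67.2 under the wild type label against 69.7 under the antisense label. LG1, which is needed for the ligule and the lamina joint, had signals of 494 and 641, and BU1, a brassinosteroid-induced regulator of lamina joint bending, had signals of 463 and 450. Both collar genes were thus well above the signal minimum of 100 used below on each array. OSH1, a homeobox gene of shoot meristems, reached at most 23.2 by either of its probe sets.

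Of the 4 alpha-expansin genes, 3 had the higher signal under the antisense label and 1 under the wild type label, and none differed 2-fold. OsEXP2, an alpha-expansin gene and the brightest of the 6, had a signal of 10031 on the wild type-labelled array and 15419 on the antisense-labelled array. Its signal was 1.54-fold higher under the antisense label (log2 ratio 0.62). On both arrays OsEXP2 was among the brightest transcripts of the collar, above 98.8% of all probe sets under the wild type label against 99.4% under the antisense label. OsEXP6 had signals of 1159 and 1528, 1.32-fold higher under the antisense label (log2 ratio 0.40), and lay above 85.0% and 88.2% of probe sets. OsEXP5 was far dimmer, with signals of 139 and 205, 1.47-fold higher under the antisense label (log2 ratio 0.55). OsEXP16 was the alpha-expansin gene with the opposite sign. Its signal was 135 under the wild type label against 80.8 under the antisense label, 1.67-fold lower (log2 ratio -0.74), so that it passed the signal minimum of 100 on 1 array only.

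**Figure D1:**
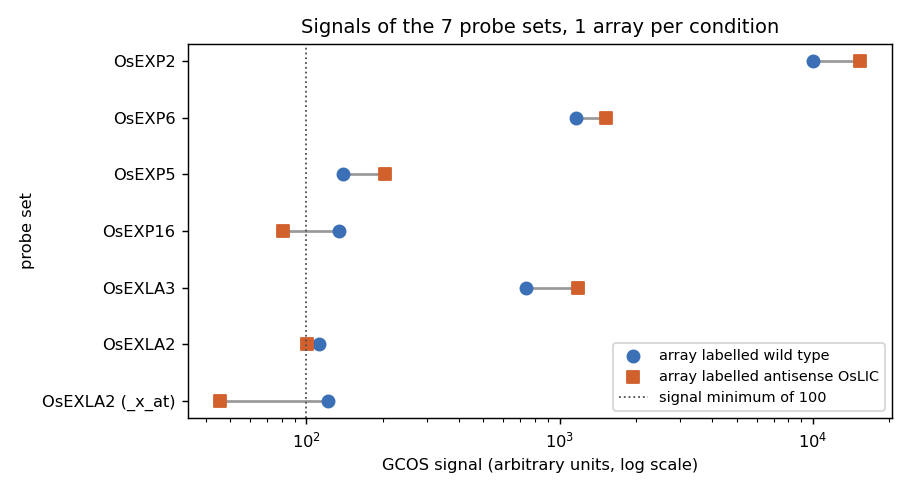
Signals of the 7 probe sets of the 6 genes on a log axis, with a circle for the wild type-labelled array and a square for the antisense-labelled array, 1 array each and hence no error bars. OsEXP2 lies near the right edge at 10031 and 15419, while OsEXP5, OsEXP16 and OsEXLA2 lie close to the dotted signal minimum of 100.

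The expansin-like A genes did not share a direction. OsEXLA3 had a signal of 739.7 on the wild type-labelled array and 1182.5 on the antisense-labelled array, 1.60-fold higher (log2 ratio 0.68), the highest ratio among the 6 genes. OsEXLA2 was dim on both arrays and its probe sets, which were designed from the same accession (AK068088), gave different sizes of difference. By the probe set with the higher mean log2 signal, OsEXLA2 had signals of 113 and 101 (log2 ratio -0.16), which is close to equal. By the other, whose suffix _x_at marks probes that can also bind other transcripts, the signals were 122 and 45.6 (log2 ratio -1.42). A signal of 45.6 could not be told from background, as no detection calls were used, and this ratio therefore compares the deposited signals and gives no size for a difference in transcript. The 2 probe sets were nearly equal under the wild type label and apart under the antisense label. The ratio of OsEXLA2 past 2-fold thus rested on the less specific probe set and on that dim signal.

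A difference was counted from 2-fold, a log2 ratio of 1 or -1, among probe sets whose brighter signal was at least 100. All 7 probe sets of the 6 genes passed this minimum, and none of their signals was under the floor of 20 that was set for ratios. With the brightest probe set of each gene, 0 of the 6 genes were 2-fold higher and 0 were 2-fold lower under the antisense label. Of the 7 probe sets, 0 were 2-fold higher and 1, the _x_at probe set of OsEXLA2 with its dim signal of 45.6, was 2-fold lower. Over all 26697 probe sets past the minimum, 5.28% were 2-fold higher and 4.64% were 2-fold lower, and over 6 genes a count of 0 is close to these shares. The 6 genes had a median log2 ratio of 0.48, with 4 above 0 and 2 below, while the median over all probe sets past the minimum was -0.01 and 48.5% of them lay above 0. The 6 genes were chosen with ratios of these arrays known, so this median is a description of them and says nothing of the superfamily.

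The spread of ratios between the arrays depended on brightness, and each gene can be set beside probe sets of like brightness. Among the 1762 probe sets with a mean signal of 5000 or more, the 5th and 95th percentiles of the log2 ratio were -0.51 and 0.56, and OsEXP2, at 0.62, lay just above them. Between 1000 and 5000 the percentiles were -0.59 and 0.60, and OsEXP6 lay between them. Between 200 and 1000 they were -0.78 and 0.81, and OsEXLA3, at 0.68, lay between them as well. Under 200 they widened to -1.73 and 2.00, which took in OsEXP5, OsEXP16 and both probe sets of OsEXLA2. These percentiles describe all transcripts of the 2 arrays, true differences included, and are not an error of measurement. Of all probe sets past the minimum, 21.4% lay at least as far from 0 as OsEXP2, 18.9% as far as OsEXLA3 and 16.6% as far as OsEXP16. These shares pool all levels of brightness, the dim probe sets with the widest spread included. They are therefore not shares among probe sets as bright as OsEXP2 or OsEXLA3. With 2 arrays the pattern of a gene is 1 ratio, and 640 probe sets had a log2 ratio within 0.05 of that of OsEXP2.

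**Figure D2:**
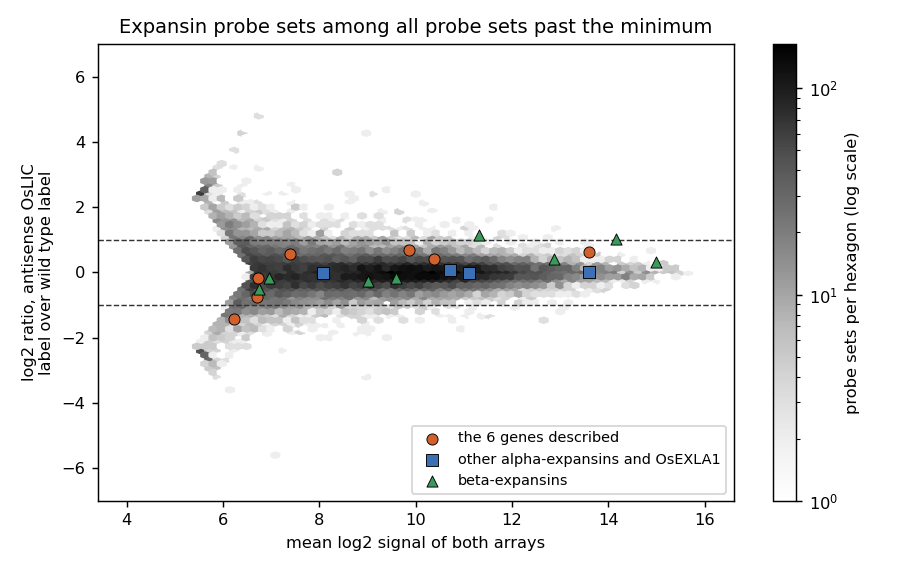
Log2 ratio, antisense label over wild type label, against the mean log2 signal, with all probe sets past the signal minimum in grey (darker where more lie) and expansin probe sets as symbols, and dashed lines at 2-fold. The spread of the grey cloud is widest at low signal, where OsEXP16 and both probe sets of OsEXLA2 lie, and OsEXP2 lies far to the right near the upper edge of the cloud.

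The other alpha-expansin and expansin-like A genes found by name and past the minimum had nearly equal signals on the arrays. OsEXP1 had signals of 12419 and 12533 (log2 ratio 0.01) and was thus about as bright as OsEXP2. Under the wild type label OsEXP1 had the higher signal of this pair, and under the antisense label OsEXP2 had. OsEXP10, which aluminium induces in rice roots, had signals of 1648 and 1729 (log2 ratio 0.07). OsEXP7 had signals of 271.6 and 270.2 (log2 ratio -0.01), and OsEXLA1 had 2231 and 2189 (log2 ratio -0.03). None of these 4 genes differed 2-fold, and each was closer to 0 than any of the 6. The 6 were chosen with ratios of these arrays known, so this contrast is a description and says nothing of the rest of the family. In order of brightness under the wild type label the alpha-expansin genes were OsEXP1, OsEXP2, OsEXP10, OsEXP6, OsEXP7, OsEXP5 and OsEXP16, and the expansin-like A genes were OsEXLA1, OsEXLA3 and OsEXLA2. OsEXP5 and OsEXP16, neighbours at 139 and 135 in that order, were nearly equal there and stood at 205 and 80.8 under the antisense label. This is an order of signals, not of transcript number, since probe sets differ in how strongly they bind. Probe sets of the same gene can lie as far apart as those of OsEXP7, of which the other 2 gave 26.6 and 18.9 under the wild type label, and the cause of this gap was not tested.

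By a RefSeq symbol or synonym of the form EXP or OsEXP with a number, 29 alpha-expansin genes were found. Names of the form EXPA were not searched. Of the 29, 14 had a probe set that the annotation gives to a single gene, and 7 of these passed the minimum. The other 7 reached at most 65.8 on either array. Among them were OsEXP4, known for its part in the growth of coleoptiles and internodes, with signals of 8.66 and 1.90, and OsEXP8, linked to root growth, with 19.8 and 54.1. OsEXP26 had 19.0 and 65.8. At such signals a level could not be told from background, since no detection calls were used, and no ratio is given for them. Of the 4 expansin-like A genes OsEXLA4 stayed under the minimum, with signals of 91.7 and 73.7. The 1 expansin-like B gene had no probe set in the annotation.

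The beta-expansins act on walls of the grass type. Of the 18 expansin genes found by name and past the minimum, 2 were past 2-fold by their brightest probe set, both beta-expansins. Expansin genes that could not be found by name in the annotation were not read. Of 11 beta-expansin genes with a probe set 8 passed the minimum, and 2 of these 8 were 2-fold higher and 0 were 2-fold lower under the antisense label, beside the 5.28% and 4.64% of all probe sets. The brightest, OsEXPB3, had signals of 29384 and 36467 (log2 ratio 0.31). OsEXPB6 had 12770 and 26103 (log2 ratio 1.03), OsEXPB4 had 6494 and 8592 (log2 ratio 0.40), and OsEXPB11 had 1717 and 3785 (log2 ratio 1.14). The median log2 ratio of the 8 was 0.08, with 4 above 0 and 4 below. The 4 above 0 were the brightest of the 8 and the 4 below 0 the dimmest. OsEXPB6 had a log2 ratio of 0.996 after quantile normalization, under 2-fold. OsEXPB4 was read by a probe set of the suffix _s_at, which can be shared between genes.

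**Figure D3:**
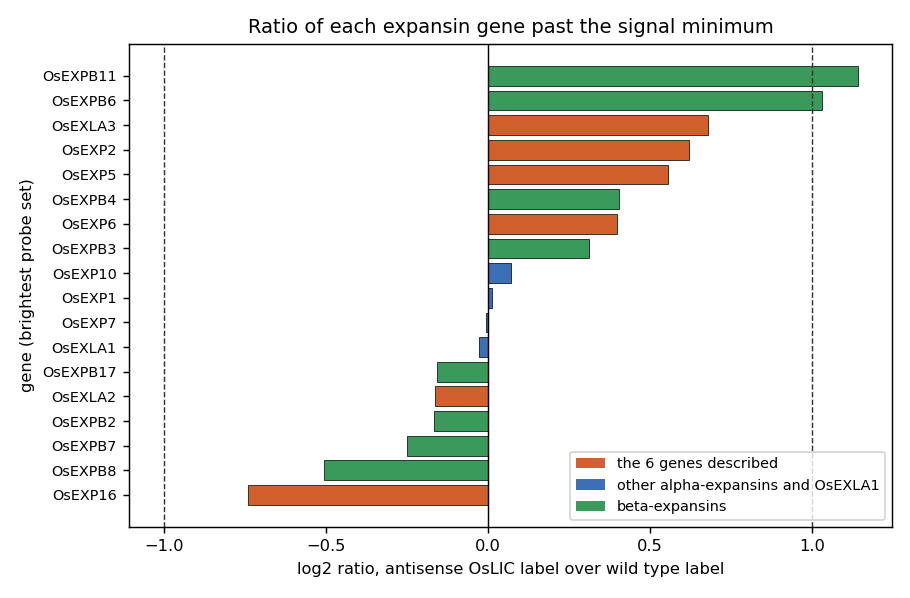
Log2 ratio, antisense label over wild type label, for the 18 expansin genes past the signal minimum, by the brightest probe set of each gene, 1 array per condition, with dashed lines at 2-fold. OsEXPB11 and OsEXPB6 pass the line at 1, OsEXLA3, OsEXP2 and OsEXP5 follow below it, and OsEXP16 has the lowest ratio at -0.74.

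Expansin genes often lie side by side in the rice genome, and RefSeq places 13 pairs of those found by name as direct neighbours among protein-coding genes. None of these pairs held any of the 6 genes. Of their 12 direct neighbours, 9 had a probe set past the minimum, and the log2 ratios of these ran from -0.38 to 0.72 with 0 past 2-fold. Over all probe sets past the minimum 5.28% were 2-fold higher and 4.64% lower, and over 9 genes a count of 0 is close to these shares.

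Markers of other tissue were read beside these values. Of 12 genes listed as floral MADS-box genes 4 passed the minimum, and their summed signal was 11049 under the wild type label against 7341 under the antisense label. Without the brightest of them the other 3 summed to 1277 and 1285, so that the difference in the sum came from that gene. Most of this remainder was OsMADS16, with signals of 1001 and 1179. OsMADS17 had signals of 121 and 75.1, and a gene named MADS2 had 155 and 30.5. Both were lower under the antisense label and under the minimum there. Of the 4 genes past the minimum, 1 was 2-fold lower and 0 were 2-fold higher, beside 4.64% and 5.28% of all probe sets. The 1 lower gene was that with 155 and 30.5, and 12.5% of probe sets with a mean signal under 200 were 2-fold lower. The brightest, with signals of 9773 and 6057, carries both MADS2 and OsMADS18 among its names. The 8 others, among them OsMADS1, OsMADS3, OsMADS6, OsMADS13 and OsMADS58, were under the minimum on both arrays. Of genes of the leaf blade's chloroplasts, CAB2R, a chlorophyll-binding protein, had signals of 25685 and 12844 by its brightest probe set and of 12945 and 5531 by the other. The small subunit of Rubisco, OsrbcS, had signals of 14898 and 25699 by its brightest probe set and of 769 and 1168 by another, but of 3933 and 2997 by the remaining one past the minimum. The probe sets of OsrbcS thus did not share a direction, while both of CAB2R were lower under the antisense label. The brightest and the remaining one of OsrbcS carry the suffix _x_at, and the dimmer one of CAB2R the suffix _s_at. These can also bind other transcripts, so their signals need not come from the named gene alone. The part of other tissue in the values of the 6 genes was not tested.

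The ratios of the 6 genes held their sign under every alternative that gave them a ratio. A floor of 50, other signal minimums and leaving out _x_at and _s_at probe sets did not alter these ratios, so they are no check of the sign. Averaging probe sets could alter only OsEXLA2. The ratio of OsEXP16 was the one most open to the treatment of dim signals and was -0.50 when 50 was added to both signals, against -0.74. That of OsEXLA2 was -0.79 when its 2 probe sets, the dim _x_at one included, were averaged, against -0.16 by the brighter one. OsEXP2, OsEXP6 and OsEXLA3, whose signals were well above the floor, moved by little.

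**Figure D4:**
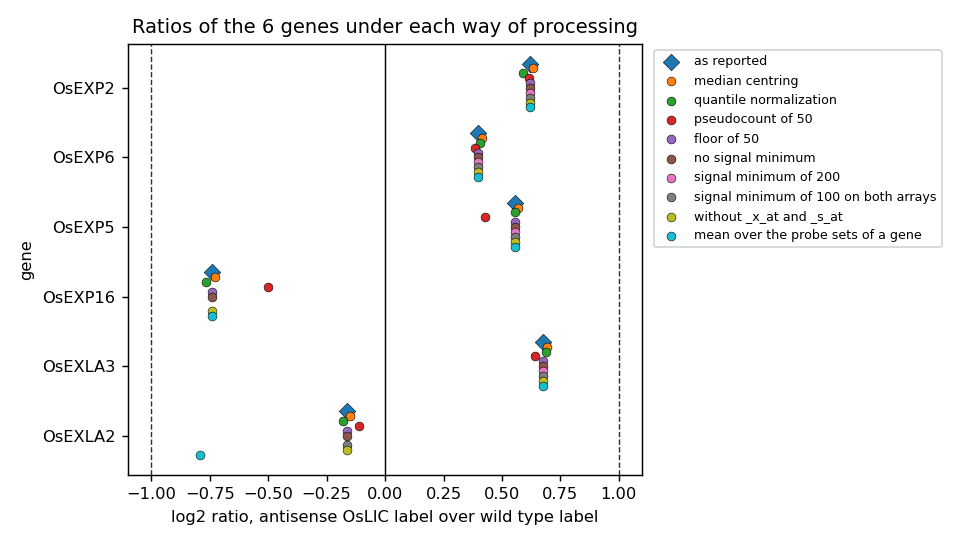
Log2 ratio of the 6 genes (antisense OsLIC label over wild type label) as reported (diamond) and under each alternative way of processing (circles), with dashed lines at 2-fold. No point passes 2-fold, OsEXP2, OsEXP6 and OsEXLA3 stay in place, OsEXP16 moves to -0.50 with the pseudocount, and OsEXLA2 moves to -0.79 when its probe sets are averaged.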

How the data were processed

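Collar RNA was hybridised to the Affymetrix GeneChip Rice Genome Array, 1 array per group. The deposited values are linear signals per probe set, which the authors computed with GCOS (version not given in the sources used here) and scaled to an overall intensity of 500 on each array. The 2% trimmed mean was checked and was 500.1 on both. The 57381 probe sets include 187 controls, which were left out. A floor of 20 was put under all signals before the log2 ratio, antisense OsLIC over wild type, was formed, with no other normalization. Probe sets were kept from a signal of 100 on the brighter array. Each gene took the values of its probe set of highest mean log2 signal.

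Probe sets were joined to genes by Entrez identifier and to names by the symbols and synonyms of RefSeq (ASM3414082v1). Every expansin gene so named was read, together with the markers and 3 lists of wall genes. All alpha-expansin and expansin-like A genes found in this way and past the minimum are named, and the 4 brightest beta-expansin genes. OsEXP4, OsEXP8, OsEXP26, OsEXLA4 and the marker genes under the minimum were chosen for naming once their values had been seen. The genes and lists were chosen with earlier results of these arrays known. Calculations used Python 3.11.15, numpy 2.4.6 and pandas 2.3.3 and were tested on simulated data. Alternatives were median centring, quantile normalization, a pseudocount of 50, a floor of 50, other signal minimums, a 3-fold threshold, leaving out the suffixes _x_at and _s_at, and averaging all probe sets that read a gene.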

Additional observations from a re-analysis of the deposited data

How the results depend on the processing

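No paired analysis was possible because each group has 1 array, and for the same reason no replicate could be left out. Of 80 values recomputed under the 10 alternatives, 76 stayed within the limits (0.5 on the log2 scale, 1.5 times for counts) and 4 moved past them. Many of the 76 could not change under their alternative. The limit of 0.5 was also wider than the ratios of OsEXP6 (0.40) and OsEXLA2 (-0.16) and the median of the 6 genes (0.48). The count of 76 is therefore no measure of how firm these ratios are. The log2 ratio of OsEXLA2 was -0.79 as the mean of its probe sets. The number of other expansin genes past 2-fold, 2 of 12, was 1 after quantile normalization, 4 of 23 without a signal minimum and 0 with a 3-fold threshold. The 6 genes stayed at 0 past 2-fold under each alternative, and their median log2 ratio lay between 0.41 and 0.59. OsEXP16 and OsEXLA2 have no value at a signal minimum of 200, nor OsEXP16 at a minimum of 100 on both arrays. Over all probe sets, 1409 were 2-fold higher and 1238 lower, against 861 and 700 with a pseudocount of 50, 689 and 581 at a minimum of 200, 520 and 455 at 100 on both arrays, 4860 and 4229 without a minimum, and 666 and 507 past 3-fold. The number of arrays limits the precision.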

Other observations

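Other cell wall genes were read for the same collars, with directions between the arrays as labelled. Cellulose synthases build the cellulose fibrils of the wall. Of 9 CesA genes, 8 had the higher signal under the antisense label, with a median log2 ratio of 0.20 and none past 2-fold. Of all probe sets past the minimum 48.5% lay above 0, 5.28% were 2-fold higher and 4.64% were 2-fold lower. CesA7 had the highest ratio of the 9, with signals of 269.9 and 467 (log2 ratio 0.79). CesA3, the brightest, had signals of 17599 and 19076 (log2 ratio 0.12). OsXRT5, the only gene that the search by name found as a xyloglucan endotransglucosylase, had signals of 1166 and 1819 (log2 ratio 0.64). Genes of this kind under other names were not read. Of 11 endoglucanase genes with a probe set 4 passed the minimum, and none of these was past 2-fold. GLU2, the brightest, had signals of 10732 and 12223 (log2 ratio 0.19), and GLU11 had 808.7 and 487.4 (log2 ratio -0.73). All these ratios come from 1 array per condition and were not tested.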
